A study of Xenopus laevis with 12 samples.

Results

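A pair of antisense reagents against the same gene were set against each other in early gastrulae (stage 10.5) of the frog Xenopus laevis. One group received the morpholino Fam46a-MO1 (2 arrays), and the other a mix of Fam46a-MO2 with Fam46a-MO3, written MO2+MO3 (2 arrays). These 4 arrays were taken by their labels from a series of 12, and all 32539 probe sets that are not array controls were compared. In the series 3 groups of whole embryos (MO1, MO2+MO3 and a control morpholino, CoMO) were sampled at stage 8 and again at stage 10.5, with 2 replicates each. MO1 was given at 10 ng per cell, MO2 and MO3 at 7 ng per cell each (14 ng per cell together), and CoMO at 10 ng per cell. The doses therefore differ between the reagents. Every embryo, controls included, came from in vitro fertilization and was injected near the animal pole, into each cell of the 4-cell embryo. Affymetrix arrays were hybridized with biotinylated RNA made from 100 ng of total RNA. The labels call the replicates biological but do not say whether they are separate clutches, so p-values measure the spread between these samples. They also do not say which step of RNA use each morpholino blocks. In whole embryos, fewer cells of a type and less RNA per cell cannot be told apart.

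Morpholinos are synthetic oligonucleotides that bind an RNA and block its translation or its splicing, and most do not destroy the RNA they bind. Fam46a, now named tent5a, belongs to a family of nucleotidyltransferases that add adenosines to the tails of RNAs. Stage 8 is a blastula near the onset of zygotic transcription, with an RNA pool that is largely maternal, and stage 10.5 is an early gastrula, in which the germ layers and the organizer are being specified. X. laevis is an allotetraploid, so that many genes have a copy on a long chromosome (.L) and one on a short chromosome (.S).

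All values are log2 signals centred, as read from the values, on the median of the 6 arrays of a stage for each probe set. Levels therefore cannot be compared between genes or stages. Differences are MO1 minus MO2+MO3 on the log2 scale, where 1 is 2-fold. A probe set is called where limma's moderated test, fitted over all probe sets and 12 arrays, gives a Benjamini-Hochberg adjusted p under 0.05. Same-numbered samples deviated together from their group means, with correlations of 0.82 to 0.85 between groups at stage 10.5. A second fit with the replicate number as a block is therefore given wherever it changes a call. Coarse levels recovered from the rounding of the deposited values placed 12 of 13 probe sets of neural ectoderm markers, 9 of 10 of mesoderm markers and 12 of 14 of organizer markers at or above 4, a bound below which 4 of the 6 TrpnX negative controls lay on their lowest array. The numbers were 17 of 22 for non-neural ectoderm, 12 of 15 for endoderm and 7 of 10 for germ plasm markers. Of these, 3, 2 and 1 lay below 4 on their lowest array. Of 8 probe sets for markers of muscle, blood, neurons and pigment cells, 7 lay below 4 on their lowest array.

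The targeted gene comes first. For tent5a.L, the first of 2 probe sets read -0.13 and -0.12 in MO1, 0.38 and 0.12 in MO2+MO3 and 0.14 and -0.43 in CoMO. The second read -0.13 and -0.02 in MO1, 0.13 and 0.02 in MO2+MO3 and 0.09 and -0.04 in CoMO. On both, the MO1 arrays were below the MO2+MO3 arrays and overlapped the CoMO arrays. The differences of -0.37 ± 0.35 and -0.16 ± 0.28 (SE) were not called in either fit (limma, adjusted p of 0.243 and 0.719 with the block). The related tent5b.S was measured by 2 probe sets with differences of 0.17 and 0.01, neither called. Since morpholinos need not remove their target RNA, these values do not check the labels.

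Transcript profiles differed between the 2 reagent groups at stage 10.5, with a number of calls that depended strongly on the fit. Without the block, 83 probe sets were called higher in MO1 (0.255% of those tested) and 96 lower (0.295%), and 98 of these 179 probe sets differed by at least 2-fold. With the block, 1419 were called higher (4.36%) and 1752 lower (5.38%), and these include all 179. At an unadjusted p under 0.05 the numbers were 2676 without and 7489 with the block. The smaller set depends on the spread estimated over all 12 arrays: a fit of the 6 arrays of this stage alone, or of the 4 arrays alone, called 0 probe sets without the block, while the 4 arrays alone with the block called 1114 higher and 1393 lower. Leaving out any 1 of the 4 arrays left 5 to 13 higher and 7 to 20 lower without the block (fewest without MO1 replicate 2), and 375 to 574 higher and 498 to 763 lower with it. Leaving out either CoMO array left 42 higher and 52 lower without the block.

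Over all probe sets the difference in replicate 1 and that in replicate 2 correlated with r = 0.655, as a description over 32539 probe sets from the same 4 arrays. The sign was the same in both pairs for 66.7% of all probe sets. It was the same for all 179 called without the block, which follows largely from a call made on these 4 arrays and is no separate evidence. Calls in every fit that left out any 1 of the 4 arrays were made for 9 probe sets, and their named genes are agap1.L, baz1a.S, ccnyl1.S, dbn1.S, gpi.S and rcan1.L.

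**Figure D1:**
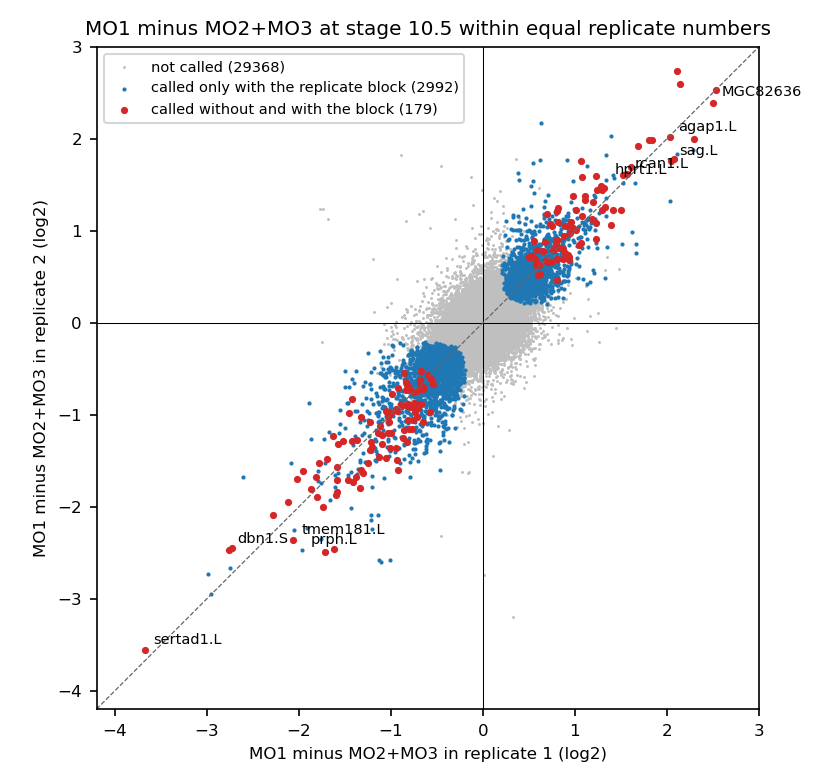
Difference MO1 minus MO2+MO3 (log2) within replicate 1 (x axis) and within replicate 2 (y axis) for 32539 probe sets at stage 10.5, each point a probe set, with the dashed line marking equal differences. The 179 probe sets called without the block (red) and the 2992 called only with it (blue) lie in the lower left and upper right quadrants, with sertad1.L at -3.62 on average farthest from 0.

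The CoMO arrays, which share no array with the contrast, show which reagent a difference goes with. Of the 83 probe sets higher in MO1, MO1 lay at least 2 times farther from CoMO than MO2+MO3 did for 34, MO2+MO3 lay at least 2 times farther for 32, and 17 fell between. Of the 96 lower in MO1 the numbers were 43, 34 and 19. In neither direction did 1 reagent lie at least 2 times farther for most of the probe sets. CoMO lay between the reagents for 116 of the 179 (64.8%), a share that choosing probe sets for a large gap between the reagents raises by itself.

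Among the genes lower in MO1, dbn1.S, cenpv.L, mkrn2.L, plin3.S, fnta.S and 1 probe set of pax3.L stood apart in the MO1 embryos. Drebrin, the actin-binding protein encoded by dbn1.S, read -2.21 and -2.11 in MO1, 0.56 and 0.36 in MO2+MO3 and 0.06 and -0.06 in CoMO. Both MO1 arrays lay more than 2 log2 units below every other array, and the difference was -2.62 ± 0.12 (limma, adjusted p = 0.000527), or 6.13-fold lower in MO1. All 3 probe sets of dbn1.S ran the same way, between -2.62 and -2.15, and 2 were called without the block and all 3 with it. For mkrn2.L, a makorin RING-finger ubiquitin ligase, the values were -2.07 and -1.77 in MO1, 0.04 and 0.18 in MO2+MO3 and -0.04 and 0.24 in CoMO. MO2+MO3 overlapped CoMO, and MO1 was 4.09-fold lower than MO2+MO3 (-2.03 ± 0.22, adjusted p = 0.0116).

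The centromere protein gene cenpv.L read -1.59 and -1.55 in MO1, 0.19 and -0.02 in MO2+MO3 and 0.02 and 0.23 in CoMO. Its replicates were close together in every group, and MO1 was lower by 1.65 ± 0.13 (-1.65, adjusted p = 0.00454). plin3.S, a perilipin of the lipid droplet surface, read -1.29 and -1.86 in MO1, 0.33 and 0.60 in MO2+MO3 and -0.05 and 0.05 in CoMO. The difference was -2.04, while the other copy, plin3.L, differed by 0.03 and was not called. The alpha subunit shared by protein farnesyltransferase and type I geranylgeranyl transferase, fnta.S, differed by -1.32 ± 0.20 (adjusted p = 0.0409), and its 3 probe sets by -1.32 to -0.99. Of these, 1 was called without the block and all 3 with it.

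Pax3, a paired-box factor of the neural plate border and neural crest, was called on 1 of 5 probe sets of pax3.L. That probe set read -1.20 and -1.57 in MO1, 0.04 and -0.04 in MO2+MO3 and 0.26 and 0.40 in CoMO, a difference of -1.39 ± 0.22 (adjusted p = 0.0476). The mean over the 5 probe sets was -0.39, called only with the block (adjusted p = 0.024), and the 2 probe sets of pax3.S averaged 0.27 without a call. The pax3 result therefore rests on 1 probe set. Of the uncalled pax3.L probe sets, some had both reagents well below CoMO, at -1.01 and -1.065 in MO1 and -0.64 and -0.78 in MO2+MO3. The remaining ones were at -0.20 and 0.06 in MO1 and -0.27 and 0.07 in MO2+MO3.

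Other genes were lower in MO1 because MO2+MO3 embryos were above the control. The largest difference of all named genes was that of sertad1.L, a SERTA-domain regulator that binds the cell cycle kinase CDK4 in mammals: it read -0.60 and 0.09 in MO1, 3.08 and 3.65 in MO2+MO3 and -0.37 and -0.09 in CoMO. The MO1 and CoMO arrays overlapped, and MO2+MO3 was on average about 3.6 units above both. The difference was -3.62 ± 0.34 (adjusted p = 0.00693), 12.3-fold lower in MO1. The recovered level of the lowest MO1 array was below 4.

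tmem181.L, a transmembrane protein gene, read 0.07 and -0.69 in MO1, 2.13 and 1.67 in MO2+MO3 and -0.07 and -1.08 in CoMO. This probe set differed by -2.21 ± 0.36 (adjusted p = 0.0476), but the 7 probe sets of the gene ranged from -2.21 to 0.14. Of the 7, 2 were called without the block and 4 with it. zfand2a.L, an AN1-type zinc finger gene inducible by arsenite in mammals, read -0.13 and -0.27 in MO1, 1.45 and 1.05 in MO2+MO3 and 0.13 and -0.37 in CoMO. XB5824245.L, which has no descriptive name, showed the same arrangement with a difference of -1.58, and its lowest MO1 array had a recovered level below 4. In these genes the 2 MO2+MO3 arrays were above all 4 others.

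For 1 of the 2 probe sets of baz1a.S and for gpi.S the reagents lay on opposite sides of the control. MO2+MO3 was the farther for this baz1a.S probe set (1.33 against -0.52). The same held with MO1 much the farther for dbn1.S (-2.16 in MO1 and 0.46 in MO2+MO3) and plin3.S (-1.575 and 0.46). baz1a.S, a subunit of ISWI chromatin remodelling complexes, read -0.55 and -0.48 in MO1, 1.25 and 1.41 in MO2+MO3 and -0.02 and 0.02 in CoMO. Each reagent's arrays were separate from CoMO, and the difference between the reagents was -1.85 ± 0.10 (adjusted p = 0.000527). The second probe set of baz1a.S differed by -0.59 and was called only with the block. On it both reagents lay above CoMO, MO1 at 0.21 and MO2+MO3 at 0.80. gpi.S, the glycolytic enzyme glucose-6-phosphate isomerase, read -0.81 and -1.08 in MO1, 0.77 and 0.63 in MO2+MO3 and 0.03 and -0.03 in CoMO, a difference of -1.65 ± 0.13 (adjusted p = 0.00454).

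Among the genes higher in MO1, agap1.L, sag.L, rell1.L and ccnyl1.S stood apart in MO1 embryos. agap1.L, which encodes a GTPase-activating protein for Arf proteins of membrane traffic, read 1.66 and 1.41 in MO1, -0.37 and -0.61 in MO2+MO3 and 0.11 and -0.11 in CoMO. agap1.L was 4.07-fold higher in MO1 (2.02 ± 0.15, adjusted p = 0.00246), and both of its probe sets were called. Relative to CoMO it was at 1.535 in MO1 and at -0.49 in MO2+MO3, which thus lay below the control. ccnyl1.S, a cyclin Y-like gene, read 1.59 and 1.52 in MO1, 0.06 and -0.08 in MO2+MO3 and -0.06 and -0.14 in CoMO. MO2+MO3 stayed within 0.09 of CoMO on average, and the reagents differed by 1.57 ± 0.11 (adjusted p = 0.00229), while ccnyl1.L differed by -0.01.

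rell1.L, related to the TNF receptor family member RELT, read 1.78 and 1.53 in MO1, 0.16 and -0.16 in MO2+MO3 and -0.34 and -0.30 in CoMO. Its difference was 1.65 (adjusted p = 0.00704), against -0.15 for rell1.S. sag.L, the S-arrestin gene known from photoreceptors, read 1.12 and 1.65 in MO1, -0.92 and -0.10 in MO2+MO3 and 0.10 and -0.19 in CoMO. It differed by 1.90 ± 0.27 (adjusted p = 0.0306), with the lowest MO2+MO3 array at a recovered level below 4, and sag.S differed by -0.18. In agap1.L, ccnyl1.S, rell1.L and sag.L the MO1 arrays were the highest of the 6.

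A second set was higher in MO1 mainly because MO2+MO3 fell below the control. rcan1.L, an inhibitor of the phosphatase calcineurin, read 0.03 and 0.15 in MO1, -1.53 and -1.46 in MO2+MO3 and 0.02 and -0.02 in CoMO. MO1 was at 0.09 relative to CoMO, MO2+MO3 at -1.495, and the reagents differed by 1.59 ± 0.09 (adjusted p = 0.00066). rcan1.S differed by 0.50, called only with the block (gene means, adjusted p = 0.00395). MGC82636, which carries no descriptive name, read 0.58 and 0.60 in MO1, -1.92 and -1.80 in MO2+MO3 and -0.12 and 0.12 in CoMO, a 5.46-fold difference (2.45 ± 0.23, adjusted p = 0.00693). Relative to CoMO it was at 0.59 in MO1 and -1.86 in MO2+MO3, so that MO1 lay above the control.

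caprin2.L, an RNA-binding protein gene, read 0.46 and 0.21 in MO1, -1.35 and -1.78 in MO2+MO3 and 0.07 and -0.07 in CoMO, and differed by 1.90 ± 0.25 (adjusted p = 0.0243). mcub.L, the inhibitory subunit of the mitochondrial calcium uniporter, read 0.04 and 0.21 in MO1, -1.25 and -1.27 in MO2+MO3 and -0.04 and 0.12 in CoMO, and differed by 1.39 ± 0.13 (adjusted p = 0.00693). plk2.L, a polo-like kinase, read -0.07 and 0.32 in MO1, -1.32 and -1.12 in MO2+MO3 and 0.07 and 0.10 in CoMO, and differed by 1.34 ± 0.14 (adjusted p = 0.0116). In caprin2.L, mcub.L and plk2.L the MO2+MO3 arrays were the lowest, and MO1 lay at 0.33, 0.08 and 0.03 relative to CoMO.

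The reagents again stood on opposite sides of the control for zdhhc20.L, a palmitoyltransferase gene, which read 0.94 and 0.99 in MO1, -1.15 and -0.79 in MO2+MO3 and -0.06 and 0.06 in CoMO. Its difference of 1.93 ± 0.17 (adjusted p = 0.00693) came from steps of 0.97 above and -0.97 relative to CoMO. apoo.L, a subunit of the mitochondrial MICOS complex, was 0.72 above CoMO in MO1 and at -0.67 relative to CoMO in MO2+MO3. sgtb.L, a cochaperone gene, was at 0.78 in MO1 and -0.59 in MO2+MO3 relative to CoMO. The differences of apoo.L and sgtb.L between the reagents were 1.39 and 1.37 (adjusted p of 0.0326 and 0.0476).

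**Figure D2:**
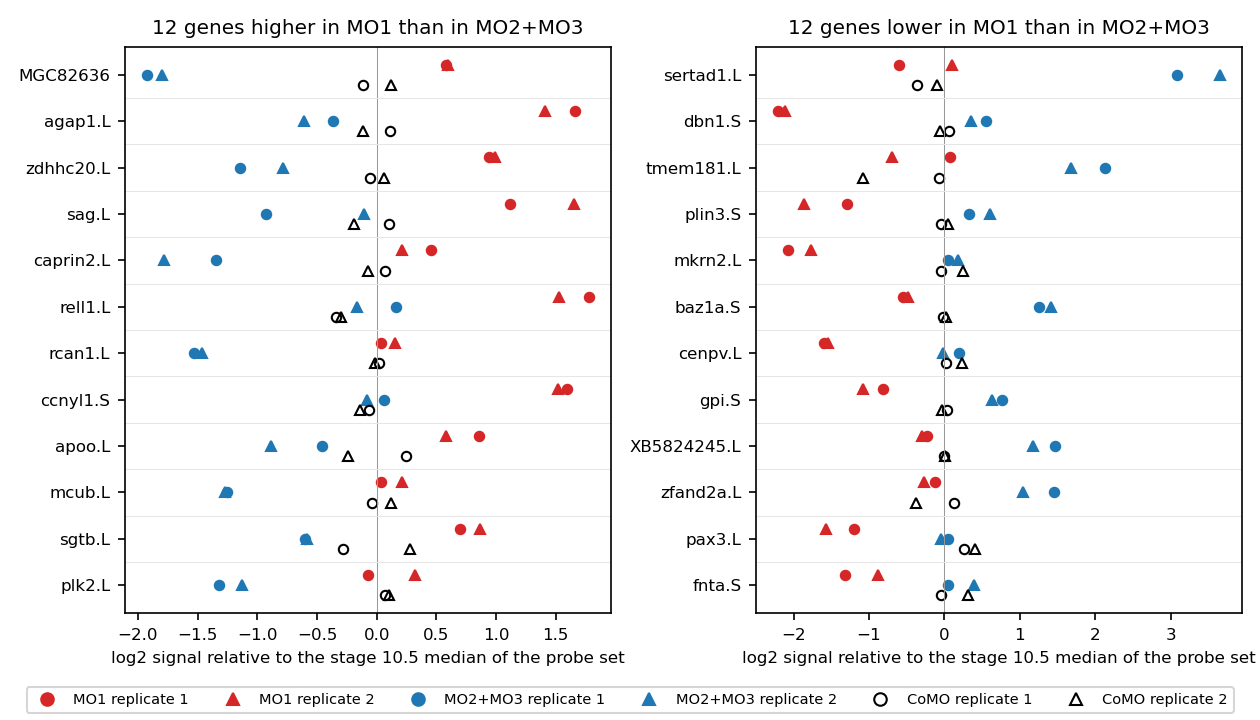
Deposited log2 signal at stage 10.5, relative to the stage median of each probe set (x axis), for the 12 genes with the largest called difference in each direction, with MO1 in red, MO2+MO3 in blue, CoMO open, and circles and triangles for replicates 1 and 2. For dbn1.S and mkrn2.L the MO1 arrays stand apart on the left, and for sertad1.L the MO2+MO3 arrays stand apart at 3.08 and 3.65.

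With the block, large differences joined that a shift between the replicates had hidden. prph.L, the neuronal intermediate filament peripherin, read -1.64 and -2.77 in MO1, 0.32 and -0.31 in MO2+MO3 and 1.08 and 0.31 in CoMO. Replicate 2 was lower than replicate 1 in each group, and the 2 groups of reagents did not overlap. The difference of -2.22 had an adjusted p of 0.0653 without the block and 0.000221 with it. hprt1.L, the purine salvage enzyme, read 1.77 and 0.23 in MO1, 0.43 and -1.32 in MO2+MO3 and -0.23 and -1.70 in CoMO. Its reagents overlapped across replicates, yet MO1 exceeded MO2+MO3 within each replicate, and the difference of 1.45 (limma, adjusted p = 0.688) was called with the block (0.000221). Of the other 2 probe sets of hprt1.L, one differed by 1.19 and was called with the block (adjusted p = 0.00701), and one differed by 0.70 and was not (adjusted p = 0.153).

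lgalsl.S, a galectin-like gene, read -0.11 and -1.26 in MO1, 1.98 and 0.26 in MO2+MO3 and 0.11 and -1.13 in CoMO. MO1 and CoMO were close within each replicate, and the difference of -1.80 was called only with the block (adjusted p = 0.000342). Its SE without the block was 2.195. At stage 8 the replicates of lgalsl.S lay far apart in every group, at -2.67 and 2.255 in MO1. The other copy, lgalsl.L, differed by -0.06 on gene means and was not called. pacrgl.L differed by -1.75, with MO1 at -1.56 and MO2+MO3 at 0.19 relative to CoMO. Higher in MO1 with the block were also hal.2.L, a histidine ammonia-lyase (1.42), XB5920187.S, without a descriptive name (1.52), and selenos.S, selenoprotein S of endoplasmic reticulum protein degradation (1.68). The other copy of hal.2.L, hal.2.S, differed by 0.06 and was not called.

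The cytoplasmic polyadenylation factor CPEB1, which binds elements in maternal mRNAs and governs their tail length, was lower in MO1 for both gene copies. cpeb1.L read 0.30 and -0.47 in MO1, 1.91 and 1.32 in MO2+MO3 and -0.30 and -0.79 in CoMO, and cpeb1.S read 0.34 and -1.20 in MO1, 1.55 and 1.04 in MO2+MO3 and -0.34 and -1.38 in CoMO. For both copies the MO2+MO3 arrays were the highest of the 6. The differences were -1.70 and -1.72, with adjusted p of 0.0528 and 0.255 without and 8.54e-05 and 0.00167 with the block. Relative to CoMO, cpeb1.L was at 0.46 in MO1 and 2.16 in MO2+MO3.

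Since probes for the copies can share transcripts, agreement of .L and .S is no independent repeat, but it shows where a difference is not that of 1 copy. On gene means, 2011 genes had both copies measured, and 59.7% of these had the same sign in both. With the block at least 1 copy was called for 491 genes. Both were called for 77, of which 30 were higher in MO1 for both copies, 39 were lower for both and 8 had opposite signs. Where 1 copy was called, the other had its sign in 65% of genes.

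The only gene called for both copies without the block was pik3r3, a regulatory subunit of phosphoinositide 3-kinase. pik3r3.L read 1.17 and 1.07 in MO1, 0.10 and -0.10 in MO2+MO3 and -0.79 and -0.82 in CoMO, and pik3r3.S read 0.99 and 1.03 in MO1, 0.18 and -0.18 in MO2+MO3 and -0.94 and -1.13 in CoMO. Both reagents lay above CoMO, and MO1 lay farther above it. The reagents differed by 1.12 and 1.01 (limma, adjusted p of 0.0156 and 0.0306). Called for both copies with the block, higher in MO1, were also, at the most different probe set of each copy (.L first), selenos (1.40 and 1.68), gmeb2 (0.83 and 0.76), plk2 (1.34 and 0.67) and zdhhc20 (1.93 and 0.62). Relative to CoMO, zdhhc20.L was at 0.97 in MO1 and -0.97 in MO2+MO3. By contrast, zdhhc20.S was at -0.23 in MO1 and -0.85 in MO2+MO3, both below the control. st13, a cofactor of Hsp70, differed by 0.83 for st13.L and 0.56 for st13.S. The selenos.L value depends on single arrays: it was -0.055 without MO1 replicate 2, 2.86 without MO1 replicate 1 and 0.72 without MO2+MO3 replicate 1, and with the 4 arrays alone and the block it was not called (adjusted p = 0.0663).

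Lower in MO1 for both copies with the block were prph (-2.22 and -1.23), ag1, an anterior gradient gene of the cement gland (-1.29 and -0.83), irx1, an Iroquois homeobox factor of the neural plate (-0.82 and -1.11), and wee2, the oocyte-type Wee1 kinase (-0.93 and -0.69). The prph copies stood differently to CoMO. prph.L was at -2.90 in MO1 and -0.69 in MO2+MO3, whereas prph.S was at -0.21 in MO1 and 1.01 in MO2+MO3. irx1.S read -0.88 and -1.10 in MO1, 0.27 and -0.02 in MO2+MO3 and 0.13 and 0.02 in CoMO, so that MO2+MO3 stayed near CoMO. The second probe set of ag1.S differed by -0.16 and was not called (adjusted p = 0.658 with the block), so that its gene mean was -0.496. The mycn copies differed by -1.05 and -0.82, but these 2 probe sets share a cluster identifier and cannot be told apart. Each mycn copy has a further probe set of its own cluster, at -0.15 for mycn.L and -0.25 for mycn.S, neither called (adjusted p of 0.457 and 0.282 with the block). The lowest MO1 arrays of prph.S, ag1.S and mycn.L had recovered levels below 4.

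**Figure D3:**
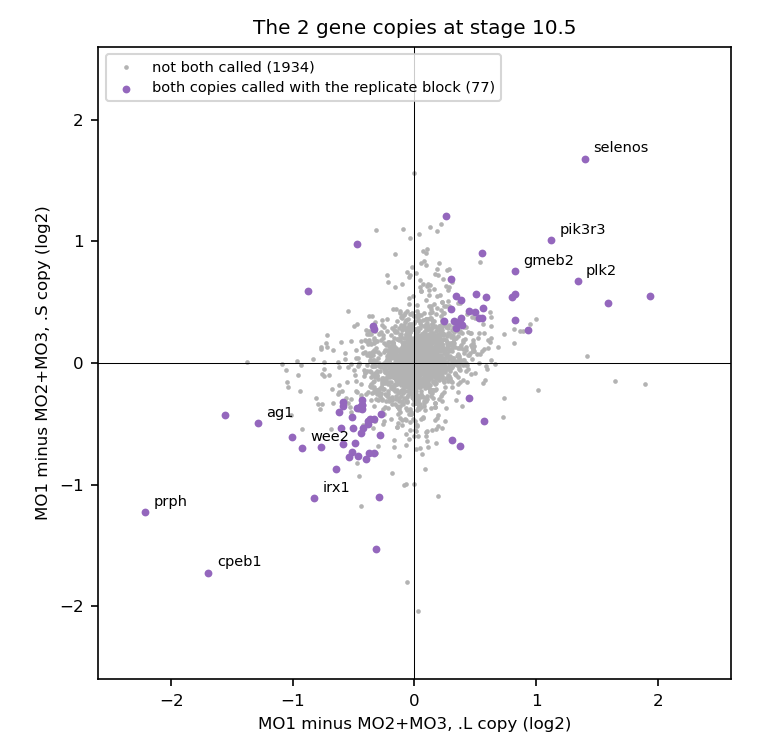
Difference MO1 minus MO2+MO3 (log2, gene means, stage 10.5) of the .L copy (x axis) and the .S copy (y axis) for 2011 genes with both copies measured. Of the 77 genes with both copies called with the block (purple), cpeb1 (-1.695 for .L and -1.724 for .S) and prph lie in the lower left and selenos (1.402 and 1.682) and pik3r3 in the upper right, while others lie far out on 1 axis only, such as zdhhc20 (1.934 and 0.552), rcan1 (1.589 and 0.498) and slc48a1 (-0.317 and -1.528).

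Gene lists for germ layers, signalling and cell functions were read on gene means, where 50 of 11303 genes were called higher in MO1 (0.442%) and 31 lower (0.274%), and with the block 821 higher (7.26%) and 723 lower (6.40%). The median difference over all genes was 0.02, with 6285 genes positive and 5018 negative, against which the sign counts of the lists are to be read. The lists were chosen with earlier results of these data known, and no list was tested, so counts are set beside those shares as a description.

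Genes of neural ectoderm and of the organizer, the dorsal signalling centre of the gastrula, leaned lower in MO1. Of 58 neural ectoderm genes 11 were lower with the block (19.0%) and 1 was higher, 38 had a negative difference, and the list's median was -0.13. Of 36 organizer genes 7 were lower (19.4%) and 0 higher, with a median of -0.18. Without the block no organizer gene was called, and the 1 neural gene called, foxd4l1.2.L, was higher in MO1. The medians changed little under array median centring (-0.14 for neural and -0.19 for organizer genes). At stage 8 they were 0.04 and 0.10.

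frzb2.L, listed among organizer genes for its secreted Frizzled-related product, averaged -1.24 and -0.05 in MO1, -0.31 and 0.51 in MO2+MO3 and 0.05 and 0.87 in CoMO. Within each replicate MO1 was lowest and CoMO highest, though the reagents overlapped across replicates. The difference was -0.74 ± 0.43 without a call and was called with the block (limma, adjusted p = 0.0043). The head inducer cer1.S (-0.66), the homeobox gene gsc.L (-0.57) and the BMP-like gene admp.S (-0.56) were also lower with the block (adjusted p of 0.0133, 0.0226 and 0.0215). The reagents overlapped across replicates for cer1.S and admp.S as well, but not for gsc.L. cer1.S averaged -1.62 and -0.13 in MO1 and -0.99 and 0.56 in MO2+MO3. Relative to CoMO, cer1.S was at -1.51 in MO1 and -0.85 in MO2+MO3, whereas gsc.L was at -0.46 in MO1 and 0.11 in MO2+MO3.

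The forkhead gene foxd4l1.2.L of the early neural plate went against its list. It read 1.02 and 1.34 in MO1, 0.03 and -0.03 in MO2+MO3 and -0.24 and -0.24 in CoMO. MO1 stood above all other arrays by about 1 unit, a difference of 1.18 ± 0.12 (limma on gene means, adjusted p = 0.00388). foxd3.L, a neural crest and pluripotency factor, was lower with the block (-0.53, adjusted p = 0.0195).

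In the mesoderm list 5 of 64 genes were lower with the block (7.81%) and 0 higher, the lower share being near that of all genes. A negative difference was found for 46 of the 64, a larger share than among the neural ectoderm genes, with a median nearer 0 (-0.08). The myogenic factor myf5.L read -1.78 and -0.15 in MO1, -1.002 and 0.15 in MO2+MO3 and 0.35 and 1.70 in CoMO. Both reagents were below CoMO in each replicate, and they differed from each other by -0.54 (adjusted p = 0.0205 with the block). spry2.S, a feedback inhibitor of FGF signalling, differed by -0.54 and dusp6.S, a phosphatase of the same pathway, by -0.42, both called with the block.

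Epidermal genes showed small net differences. With the block 4 of 56 were higher (7.14%) and 6 lower (10.7%), against 7.26% and 6.40% of all genes. The list median was 0.00, and its sign changed with the scaling. The larval keratin krt12.5.S read -2.88 and -0.56 in MO1, -1.62 and 0.56 in MO2+MO3 and 1.05 and 2.51 in CoMO. Relative to CoMO it was at -3.50 in MO1 and -2.31 in MO2+MO3, and the reagents differed by -1.19 (adjusted p = 0.0047 with the block). Relative to CoMO krt12.4.S was at -2.73 in MO1 and -1.99 in MO2+MO3, and the reagents differed by -0.74. loxl1.S, a lysyl oxidase-like gene, was at -1.22 in MO1 and -1.71 in MO2+MO3 and differed by 0.49. tfap2a.L, an AP-2 factor of ectoderm, differed by -0.44. The CoMO arrays are shared by the values of the 2 reagents relative to CoMO.

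In the BMP list 3 of 52 genes were higher with the block (5.77%, against 7.26% of all genes). The 6 lower ones made up 11.5%, against 6.40% of all genes, and the list's median was -0.04. The pseudoreceptor bambi.L (0.80), the inhibitory smad6.L (0.63) and the ligand bmp7.1.L (0.61) were the 3 higher in MO1. The lower ones include both copies of the ligand bmp2, bmp2.S (-0.77) and bmp2.L (-0.54). bmp2.S read 0.13 and -0.27 in MO1, 0.78 and 0.62 in MO2+MO3 and -0.15 and -0.13 in CoMO, with MO2+MO3 highest. The endoderm list had 1 higher and 4 lower of 43, the Wnt list 2 and 6 of 71, the Nodal list 4 and 1 of 47 and the FGF list 4 and 3 of 52. The endoderm (9.30%) and Wnt (8.45%) lists exceeded the 6.40% of all genes on the lower side. The Nodal (8.51%) and FGF (7.69%) lists were near the 7.26% of all genes on the higher side. In the other direction the endoderm, Wnt, Nodal and FGF lists were each below all genes. The higher FGF calls include both copies of pik3r3, and the lower ones include spry2.S and dusp6.S.

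Respiratory chain genes leaned higher in MO1. Of 84 genes 11 were higher with the block (13.1%) and 2 lower (2.38%), 65 had a positive difference, and the median was 0.11 (0.12 with quantile normalization). Both genes called without the block were higher. atp5mc1.L, subunit c of ATP synthase, read 0.08 and 0.13 in MO1, -0.84 and -0.82 in MO2+MO3 and -0.08 and 0.11 in CoMO, a difference of 0.93 ± 0.16 (limma, adjusted p = 0.0461). cyc1.S, cytochrome c1, read -0.01 and 0.01 in MO1, -0.69 and -0.87 in MO2+MO3 and 0.05 and 0.13 in CoMO, a difference of 0.78 ± 0.12 (adjusted p = 0.0328).

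For both genes MO1 matched CoMO and MO2+MO3 was below. atp5f1a.L (0.87) and atp5po.S (0.70), also of ATP synthase, were called with the block. Relative to CoMO, atp5f1a.L was at 0.14 in MO1 and -0.73 in MO2+MO3. By contrast, atp5po.S was at 0.63 in MO1 and -0.07 in MO2+MO3. The other copies, atp5f1a.S (0.26) and atp5po.L (-0.045), were not called. At stage 8 the list's median was -0.01, although atp5mc1.L and cyc1.S already differed by 0.77 and 0.63. In the other direction, the respiratory chain subunit genes uqcrc2.S and cox7a2.S differed by -1.14 and -0.90 at stage 8. In the early gastrula uqcrc2.S and cox7a2.S differed by -0.64 and -0.53, and both genes were called at both stages with the block.

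Cell cycle genes were called often in both directions: 14 of 102 were higher (13.7%) and 12 lower (11.8%) with the block. gins4.L, a subunit of the replicative GINS complex, read -0.07 and 0.09 in MO1, -1.30 and -0.999 in MO2+MO3 and 0.07 and 0.22 in CoMO, a difference of 1.16 ± 0.12 (limma, adjusted p = 0.00719). anapc10.L of the anaphase-promoting complex was higher with the block (0.82). The lower members include sertad1.L (-3.62, called in both fits) and wee2.L (-0.93, called with the block), both given above.

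Genes of poly(A) tails and RNA decay, the field in which the targeted enzyme family works, were split evenly. With the block 10 of 93 were higher (10.8%) and 10 lower (10.8%), against 7.26% and 6.40% of all genes. The called genes include caprin2.L and both cpeb1 copies given above, and btg4.S, an adaptor of the CCR4-NOT deadenylase, at 0.65. papola.L, the canonical poly(A) polymerase, is described below with stage 8. The germ plasm and maternal list had 4 of 43 higher (9.30%) and 5 lower (11.6%).

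Among the stress lists, p53 and apoptosis genes had 6 of 50 higher (12%) and 5 lower (10%) with the block. Innate immune genes had 4 of 43 higher (9.30%) and 2 lower (4.65%). All genes had 7.26% and 6.40%. In the p53 list plk2.L (1.34) and plk2.S (0.67) were higher. sertad1.L (-3.62) and btg2.S, a p53-responsive antiproliferative gene (-0.61), were lower. In the innate immune list cxcl12.L (0.61), traf6.L (0.53) and traf6.S (0.37) were higher, and relb.S, an NF-kappaB subunit, was lower (-0.65). Heat shock and oxidative stress genes had 3 of 57 higher (5.26%) and 1 lower (1.75%), nqo1.L among the higher ones at 0.81. For the unfolded protein response 7 of 62 were higher (11.3%) and 3 lower (4.84%). Among them derl1.L, a channel component of endoplasmic reticulum protein degradation, was at 0.96. ppp1r15b.L, a subunit that directs eIF2alpha dephosphorylation, was at -1.20.

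The lists for cytoskeleton (3 higher and 6 lower of 106) and splicing factors (3 and 6 of 103) had fewer calls than all genes in each direction. hnrnph1.L and hnrnph1.S were both lower with the block, at -0.43 and -0.37, and hnrnpu.L at -0.48, while the RNA helicase gene ddx39b.L was higher at 0.77. shroom3.L, which drives apical constriction of neural plate cells, was lower with the block at -1.10. Purine and nucleotide salvage genes had 2 of 32 called in each direction (6.25% each). pnp.L, purine nucleoside phosphorylase, read -0.81 and -1.08 in MO1, 0.13 and -0.13 in MO2+MO3 and 0.90 and 0.77 in CoMO, a difference of -0.95 called in both fits.

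**Figure D4:**
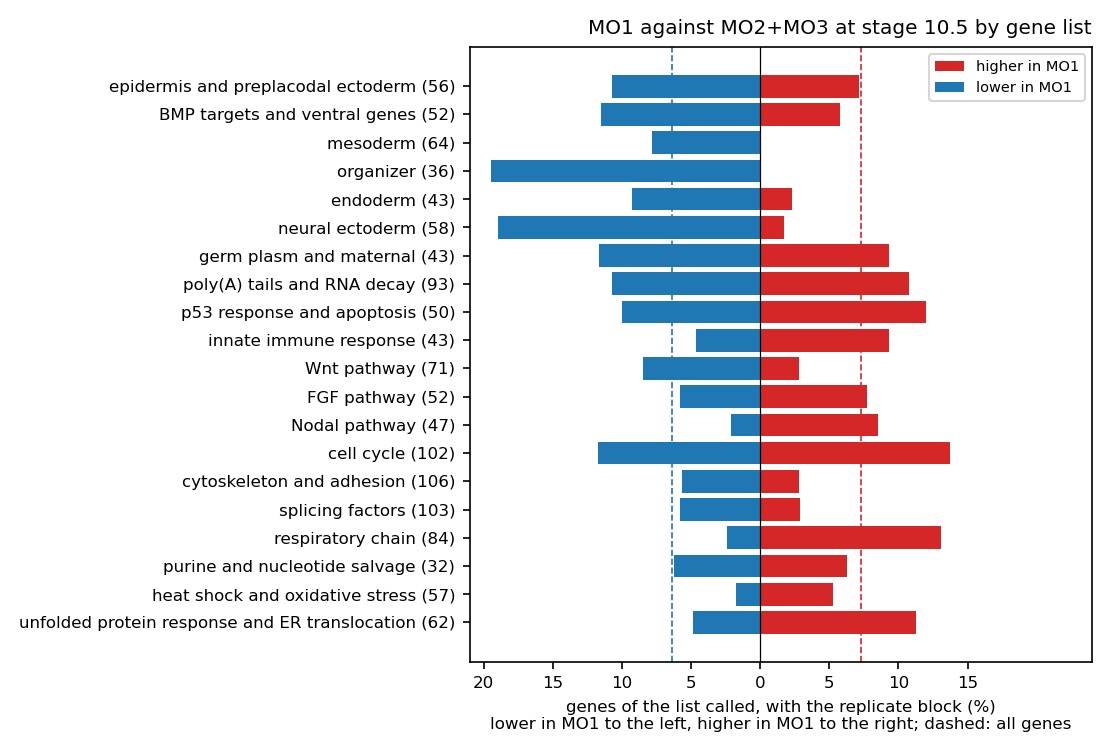
Share of the measured genes of each list (number in brackets) called at stage 10.5 with the replicate block, lower in MO1 to the left and higher in MO1 to the right, in percent. The dashed lines mark all genes at 6.40% and 7.26%, and the bars for organizer and neural ectoderm genes reach 19.4% and 19.0% on the lower side, against 13.1% on the higher side for respiratory chain genes.

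The same contrast in the stage 8 arrays, which share no array with stage 10.5, tells which differences were present before gastrulation. Without the block 2 probe sets were called at stage 8 (0.00615%), both of dbn1.S, and 794 had an unadjusted p under 0.05. With the block 124 were called (0.381%). Of these 124, 101 were also called at stage 10.5 with the block, which is 81.5% of the stage 8 calls and 3.19% of the stage 10.5 calls, and all 101 had the same sign at both stages. Over the 179 probe sets called at stage 10.5 without the block the differences at the stages correlated with r = 0.572 (r = 0.268 over all probe sets). This is a description, since both stages enter 1 fit.

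In the 101 probe sets called at both stages, the side that departed from CoMO at stage 10.5 followed the direction. Of the 48 lower in MO1, MO1 lay at least 2 times farther from CoMO than MO2+MO3 did for 38, and the reverse held for 4. Of the 53 higher in MO1, MO2+MO3 lay at least 2 times farther for 34, and MO1 did for 7. In most of them the reagent that departed from CoMO had the lower signal. This did not hold among all probe sets called at stage 10.5 with the block: of the 1752 lower ones MO1 was at least 2 times farther for 619 and MO2+MO3 for 717, and of the 1419 higher ones MO1 was for 593 and MO2+MO3 for 474.

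At stage 8 dbn1.S read -1.98 and -2.22 in MO1, 0.13 and 0.07 in MO2+MO3 and 0.04 and -0.04 in CoMO, a difference of -2.20 ± 0.12 (limma, adjusted p = 0.00218). It was nearly as large as at stage 10.5. fnta.S read -1.60 and -1.89 in MO1, 0.10 and 0.08 in MO2+MO3 and -0.08 and 0.12 in CoMO. Its difference of -1.83 (adjusted p = 0.00141 with the block) was larger than the -1.32 of stage 10.5, though the change between stages was not called (adjusted p = 0.18 with the block). mkrn2.L differed by -1.26 at stage 8 (adjusted p = 0.00172 with the block).

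rpp25l.S, related to a subunit of ribonuclease P, read -1.51 and -1.68 in MO1, 0.31 and -0.03 in MO2+MO3 and 0.51 and 0.03 in CoMO at stage 8, a difference of -1.73, against -0.74 at stage 10.5. rrs1.S, a ribosome biogenesis factor, differed by -1.998 at stage 8 (called with the block) and by -0.54 at stage 10.5 (not called). Among genes lower in MO1 at both stages and picked here after their values were seen, the actin nucleator spire1.S differed by -1.53 at stage 10.5 and -0.97 at stage 8, the prefoldin subunit pfdn6.L by -1.09 and -1.36, and the deacylase sirt3.2.L by -1.16 and -1.25. Relative to CoMO at stage 10.5, MO1 was at -1.51, -1.05 and -1.33 for spire1.S, pfdn6.L and sirt3.2.L, and MO2+MO3 was at 0.01, 0.04 and -0.17.

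Among the genes higher in MO1 at both stages, MGC82636 read 0.08 and 0.46 in MO1, -1.09 and -1.80 in MO2+MO3 and -0.05 and 0.05 in CoMO at stage 8. selenos.S differed by 1.68 at stage 10.5 and 2.06 at stage 8, and caprin2.L by 1.90 and 1.35. chchd5.L, a mitochondrial intermembrane space protein, differed by 1.03 and 1.40, and mcub.L and apoo.L by 0.97 and 0.90 at stage 8. All of these were called at both stages with the block. A second probe set of chchd5.L differed by -0.12 at stage 10.5 and -0.05 at stage 8 and was called at neither (adjusted p of 0.647 and 0.924 with the block).

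Also higher at both stages, and picked after their values were seen, were the proteasome subunits psmb4.L (0.79 at stage 10.5 and 0.67 at stage 8) and psmd3.S (0.70 and 0.73), the ribosome export adaptor nmd3.L (1.02 and 0.998) and papola.L (0.59 and 0.49). For psmb4.L, psmd3.S, nmd3.L and papola.L, MO1 was at -0.18, -0.10, -0.26 and 0.06 relative to CoMO at stage 10.5, and MO2+MO3 was at -0.97, -0.80, -1.28 and -0.53. Other probe sets of 3 of these genes were not called at both stages: those of psmd3.S differed by 0.009 and 0.09 at stage 10.5, that of papola.L by 0.04, and those of nmd3.L by 0.15 and 0.94. derl1.L and gins4.L, called at both stages as well, differed by 0.87 and 0.86 at stage 8.

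**Figure D5:**
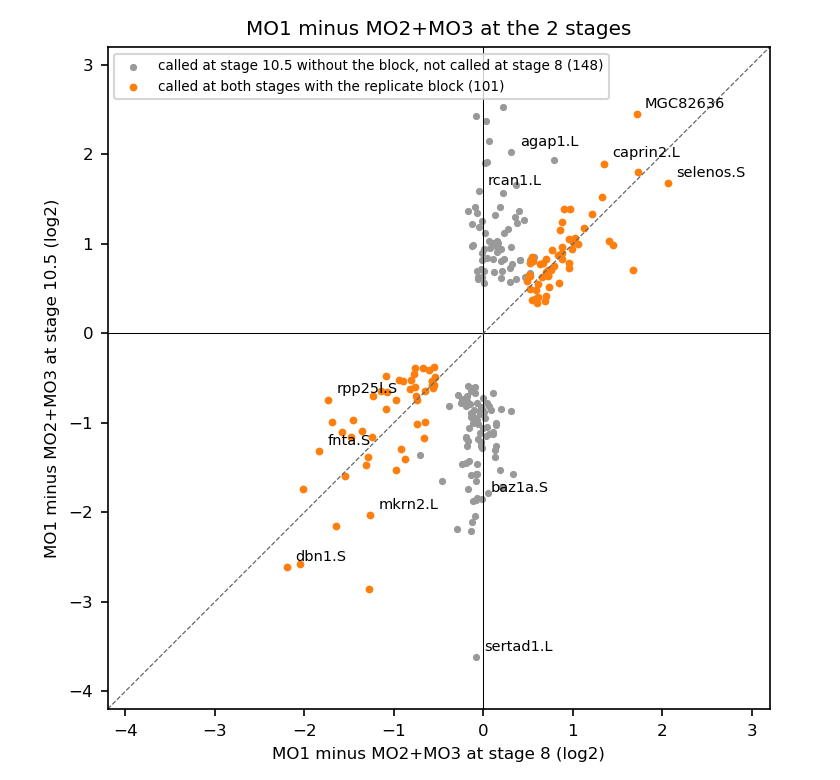
Difference MO1 minus MO2+MO3 (log2) at stage 8 (x axis) and at stage 10.5 (y axis) for the 101 probe sets called at both stages with the block (orange) and for the other 148 called at stage 10.5 without it (grey), with the dashed line marking equal differences. The orange points lie in the lower left and upper right, with dbn1.S at -2.62 at stage 10.5 and -2.20 at stage 8. Of the grey points, baz1a.S (-0.02) and rcan1.L (-0.05) lie near 0 at stage 8, whereas gpi.S (-0.46) and zdhhc20.L (0.79) lie farther out.

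The change of the difference between the stages was called for 3 probe sets without the block (0.00922%) and for 380 with it (1.17%), and at an unadjusted p under 0.05 for 1184 and 4871. Of the 179 probe sets called at stage 10.5, 102 changed between the stages with the block. The 179 were chosen by their stage 10.5 difference, which is part of the tested change. Their count is thus raised by the choice itself. baz1a.S read -0.02 and 0.01 in MO1, -0.01 and 0.04 in MO2+MO3 and -0.05 and 0.06 in CoMO at stage 8, and rcan1.L read -0.03 and 0.03 in MO1, 0.04 and 0.06 in MO2+MO3 and -0.09 and -0.05 in CoMO. At stage 8 the reagents overlapped for baz1a.S, and for rcan1.L both MO1 arrays were below both MO2+MO3 arrays by a small margin (-0.05 on average), neither being called. Both changes between the stages were called in both fits (limma, adjusted p = 0.0176 each without the block). No change between the stages was called without the block once any 1 of the 8 MO1 and MO2+MO3 arrays, or 1 of the 2 CoMO arrays of stage 10.5, was left out.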

How the data were processed

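The deposited table holds log2 values that, per the submitters' processing notes, were made by the authors with RMA (background correction, normalization and summary of probes into probe sets). In these values each probe set has a median of 0 over its stage (6 arrays). The base of the log and the centring were read from the values, since no source used here states them. The 96 control probe sets were left out. Of the 32539 probe sets, 15495 carry 1 gene, 279 several and 16765 none in the platform annotation, and 15384 of those with 1 gene matched RefSeq's table of Xenopus_laevis_v10.1. No coordinates or sequences are given.

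limma 3.58.1 in R 4.3.3 was fitted to all 12 arrays with 1 coefficient per group, eBayes and Benjamini-Hochberg adjustment, first without a block and then with a block for the replicate number (separately at each stage). Same-numbered samples paired: the correlations of their deviations from group means were 0.82 to 0.86 for all pairs of groups. The fit was tested on simulated data. Tables were made with Python (numpy, pandas, matplotlib).

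Named genes are the tent5 family, the 12 genes of largest called difference per direction in each fit, up to 4 called genes per list and fit, up to 6 genes per direction with both copies called, and up to 4 per direction for stage 8 and for the change between stages. Others are marked as picked after their values were seen, or are the other copy of a named gene, such as bmp2.L. The genes uqcrc2.S, cox7a2.S and slc48a1 fall under none of these rules and were also picked after their values were seen. The contrast and the gene lists were chosen with earlier results of these data known. Alternatives were fits of 6 or 4 arrays, median centring, quantile normalization, robust eBayes, gene means, a level filter, a 2-fold minimum, and leaving out each array. The number of arrays limits the precision.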

Additional observations from a re-analysis of the deposited data

Results flagged for a closer look

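Each result here is a gene whose difference MO1 minus MO2+MO3 changed between stage 8 and stage 10.5 by a test of that change itself (limma, Benjamini-Hochberg adjusted p under 0.05). Listed are 29 changes: the 3 called without the block and genes already named above, out of 380 probe sets called with the block. The named genes were mostly chosen for a large stage 10.5 difference, which favours a call of this change. The values are the stage 10.5 difference minus the stage 8 difference in log2 units, from 2 arrays per group and stage. The stages share no array, and no cause was tested. Groups of 2 arrays are too small for a test of single outlying arrays.

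Called without the block were baz1a.S at -1.83, rcan1.L at 1.64 and an unnamed probe set (Xl2.56875.1.S1_a_at) at 2.08, with adjusted p of 0.0176, 0.0176 and 0.0218. The unnamed probe set differed by 2.15 at stage 10.5 and 0.06 at stage 8.

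With the replicate block the difference became more positive for agap1.L (1.71), zdhhc20.L (1.15), sag.L (1.88), rell1.L (1.29), ccnyl1.S (1.35), plk2.L (1.42), hprt1.L (1.58), hal.2.L (1.24), pik3r3.L (1.11) and pik3r3.S (0.90). Their adjusted p values with the block ran from 0.0014 for agap1.L to 0.0439 for zdhhc20.L, and none was called without it.

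It became more negative for sertad1.L (-3.53), tmem181.L (-2.08), plin3.S (-1.95), cenpv.L (-1.57), gpi.S (-1.19), XB5824245.L (-1.45) and zfand2a.L (-1.26). The same held for prph.L (-2.12), prph.S (-1.20), lgalsl.S (-1.31), pacrgl.L (-1.16), cpeb1.L (-1.64) and cpeb1.S (-1.67). The neural plate gene irx1 changed by -0.98 for irx1.L and -1.31 for irx1.S, which had stage 8 differences of 0.16 and 0.20. For mkrn2.L the change was -0.77, with differences of -2.03 at stage 10.5 and -1.26 at stage 8, so that this gene was already lower in MO1 at the earlier stage.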

How the results depend on the processing

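At stage 10.5 the 83 higher and 96 lower calls stayed within 1.5 times under array median centring (71 and 95), quantile normalization (95 and 100), robust eBayes (76 and 93) and a minimum level of 4 (77 and 73). They became 1419 and 1752 with the replicate block, 0 and 0 with the 6 arrays of the stage or the 4 of the contrast alone, 1114 and 1393 with those 4 arrays and the block, 50 and 31 on gene means, and 40 and 58 with a 2-fold minimum (112 and 196 with the block). Leaving out 1 array of the stage, CoMO included, gave 5 to 42 higher and 7 to 52 lower calls without the block, and 375 to 1344 and 498 to 1681 with it. The stage 8 count of 2 became 124 with the block, 11 with 4 arrays and the block, 1 with the level filter, 0 on gene means or with 6 or 4 arrays alone, and 0 to 3 without 1 array (28 to 69 with the block). The 3 changes between stages became 380 with the block, 1 on gene means and 0 in each fit without 1 array (71 to 327 with the block; the CoMO arrays of stage 8 were not left out). Among the 58 named probe sets followed through these fits, only selenos.L reversed. Without 1 array the selenos.L difference ranged from -0.055 (without MO1 replicate 2) to 2.86, and it was not called without the block. Genes named only from the gene lists were not followed in this way. In some of them, such as cer1.S and myf5.L, the reagents overlapped across replicates, so that their sign can also depend on single arrays. The cause of these shifts was not tested beyond the fewer arrays themselves. With 2 arrays per group a single array decides many calls, recovered levels are coarse, and 16765 probe sets have no gene name. The 4 arrays with the block, the level filter with the block, the 2-fold minimum with the block, gene means with the block and the fits without a CoMO array were chosen after seeing the data.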
